A study of Mus musculus with 9 samples.

Results

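The methylome of untreated Abl.1 cells was described from the 2 control libraries of a series of 9 libraries made by reduced representation bisulfite sequencing (RRBS). Abl.1 is a clonal, immortalised line of B cells, labelled female, of the mouse strain 129S1/SvImJ x CAST/EiJ F1, so it stands for 1 clone. Both libraries came from cells kept in growth medium with 1% DMSO, the solvent of the drug used in the other 7 libraries, and collected on day 2. Dead cells were removed on a density gradient, and each library was made from 50 ng of DNA with 11 PCR cycles. By the labels they are replicates of library preparation, with no word on separate cultures, and the spread between them may be technical. RRBS cuts DNA at CCGG and reads the fragment ends after bisulfite conversion, which favours CpG-rich DNA. The series concerns DNA methylation and monoallelic expression, and the untreated level is the reference against which drug effects are read.

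In mammalian cells methyl groups are placed on the cytosine of CpG pairs. Most CpGs of the genome are methylated, while CpG islands, the CpG-rich stretches at many gene starts, are usually free of methylation. Methylated island starts are known for germline genes, for 1 parental allele of imprinted genes and for the inactive X of females, and methylation in the gene body is common in transcribed genes.

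The 2 libraries listed 1763381 and 1531189 usable CpGs with 16495423 and 9422745 reads at them, a median of 5 and 3 reads per CpG. A CpG was used where both libraries had 5 or more reads, which kept 604912 of the 1922120 CpGs listed in either. Tiles of 1 kb were used where both had 10 or more reads, which kept 78759 of 288292. Regions under 20% methylated in both libraries are called unmethylated, those from 20% to under 80% in both partly methylated and those at 80% or more in both methylated. Regions that the 2 libraries put in different classes are called discordant. With 5 of 10 reads methylated, the 95% Wilson interval runs from 23.7% to 76.3%, and such intervals cover counting error only. The levels are averages over all molecules, and the parental alleles were not separated. No CpG was left out here for a sequence difference between the parental strains or from the mm10 build. What such differences add to intermediate levels was not tested.

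The B cell label was checked at the starts of lineage markers. A gene start is the window of 1 kb either side of the 5′ end in the RefSeq table. Of 12 B lineage markers, 4 were measured (Pax5, Ebf1, Vpreb1 and Igll1), and all 4 were unmethylated, with pooled levels up to 4.76%. Among all measured protein-coding starts 71.5% were unmethylated, so these 4 are a weak check. Pax5 rests on 13 and 29 reads and Igll1 on 30 and 11. The upper Wilson limits were 22.8% and 22.0% for Pax5 and 25.9% for Igll1 in replicate 2, above the class limit of 20%. Of 12 T lineage markers 2 were measured, and Bcl11b was methylated while Tcf7 was not. Of 12 myeloid markers 2 were measured, at pooled levels of 11.8% (Cebpa) and 33.3% (Csf3r). Of 11 erythroid and megakaryocyte markers 6 were measured, and 3 were unmethylated and 3 partly methylated. Methylation of a start is no measure of RNA, and most defining surface markers, such as Cd79a and Cd3e, had too few reads at their starts or no strand in the table.

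The promoters of 6 genes show what the classes look like in sequence. They were chosen after their values were seen, 1 each for the main patterns below, among genes with many measured CpGs. Each is the RefSeq entry of 250 bases before and 50 after the start in GRCm38.p6, which is the assembly of mm10, written 5′ to 3′ along the gene, with every CpG in capitals. All 236347 listed positions inside the promoter entries fell on a CG.

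Bcl6, a transcription factor of B cells, lies on the minus strand, and its entry is chr16:23988803-23989102. Of its 31 CpGs, 26 were measured, at 0.283% and 0.366% of reads in replicates 1 and 2. Hormad1, a meiotic chromosome protein, is on the plus strand at chr3:95559427-95559726, and 20 of its 24 CpGs were at 91.0% and 92.3%. Nkx6-1, a homeobox regulator of pancreas and spinal cord, is on the minus strand at chr5:101664662-101664961, and 27 of its 40 CpGs were at 64.6% and 72.2%.
Bcl6: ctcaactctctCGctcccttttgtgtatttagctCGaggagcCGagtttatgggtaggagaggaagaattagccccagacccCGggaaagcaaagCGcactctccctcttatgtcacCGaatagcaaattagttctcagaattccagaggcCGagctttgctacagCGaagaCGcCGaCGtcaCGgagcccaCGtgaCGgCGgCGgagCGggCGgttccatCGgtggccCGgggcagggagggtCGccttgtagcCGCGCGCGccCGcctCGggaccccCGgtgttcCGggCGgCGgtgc
Hormad1: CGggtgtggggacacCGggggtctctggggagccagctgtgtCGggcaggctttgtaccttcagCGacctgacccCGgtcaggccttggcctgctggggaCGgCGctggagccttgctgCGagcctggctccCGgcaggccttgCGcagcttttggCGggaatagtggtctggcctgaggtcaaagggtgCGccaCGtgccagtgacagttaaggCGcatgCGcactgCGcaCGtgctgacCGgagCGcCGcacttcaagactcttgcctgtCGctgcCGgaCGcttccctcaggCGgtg
Nkx6-1: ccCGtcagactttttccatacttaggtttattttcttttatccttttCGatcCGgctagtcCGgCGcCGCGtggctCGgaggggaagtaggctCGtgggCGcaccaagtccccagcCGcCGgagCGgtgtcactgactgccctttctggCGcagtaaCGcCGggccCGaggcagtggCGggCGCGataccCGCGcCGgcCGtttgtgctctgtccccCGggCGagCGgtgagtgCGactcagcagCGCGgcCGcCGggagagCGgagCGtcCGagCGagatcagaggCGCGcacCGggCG

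Plagl1, an imprinted zinc finger gene, is on the plus strand at chr10:13090582-13090881, and 9 of its 26 CpGs were measured, at 25.9% and 19.4%. Hprt, an X-linked enzyme of purine salvage, is on the plus strand at chrX:52987828-52988127, and 18 of its 22 CpGs were at 39.3% and 36.0%. Pbdc1, an X-linked gene known to escape X inactivation, is on the plus strand at chrX:105079506-105079805, and 14 of its 20 CpGs were at 0.329% and 0%.
Plagl1: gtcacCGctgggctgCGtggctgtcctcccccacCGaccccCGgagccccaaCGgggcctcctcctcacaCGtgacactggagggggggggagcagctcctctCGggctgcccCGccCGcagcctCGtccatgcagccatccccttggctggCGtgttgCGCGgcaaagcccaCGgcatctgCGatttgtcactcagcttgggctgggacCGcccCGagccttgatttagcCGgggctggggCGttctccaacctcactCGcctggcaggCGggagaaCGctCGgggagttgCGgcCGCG
Hprt: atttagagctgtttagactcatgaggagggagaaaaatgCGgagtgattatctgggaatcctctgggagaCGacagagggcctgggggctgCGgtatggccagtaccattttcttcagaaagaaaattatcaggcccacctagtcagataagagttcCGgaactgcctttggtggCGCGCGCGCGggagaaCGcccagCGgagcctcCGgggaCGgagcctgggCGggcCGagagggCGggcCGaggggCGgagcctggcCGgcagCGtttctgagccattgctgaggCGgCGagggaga
Pbdc1: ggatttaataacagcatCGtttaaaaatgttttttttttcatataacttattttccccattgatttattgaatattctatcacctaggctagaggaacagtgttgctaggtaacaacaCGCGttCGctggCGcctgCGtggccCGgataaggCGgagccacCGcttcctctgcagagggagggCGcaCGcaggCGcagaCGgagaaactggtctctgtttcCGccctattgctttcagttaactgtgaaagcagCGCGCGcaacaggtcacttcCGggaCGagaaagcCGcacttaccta

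Each of these entries holds 20 to 40 CpGs, and the methylation on them ranged from almost none to almost complete. In Hormad1 the median CpG was at 100% in both libraries. In Hprt single CpGs ran from 7.69% to 75% in replicate 1 and from 16.7% to 60% in replicate 2. At the 4 CpGs inside the gene the libraries were far apart, at 7.69% to 12.5% in replicate 1 and 41.7% to 46.2% in replicate 2. Neighbouring CpGs often lie on the same reads, so they are not independent measurements.

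**Figure D1:**
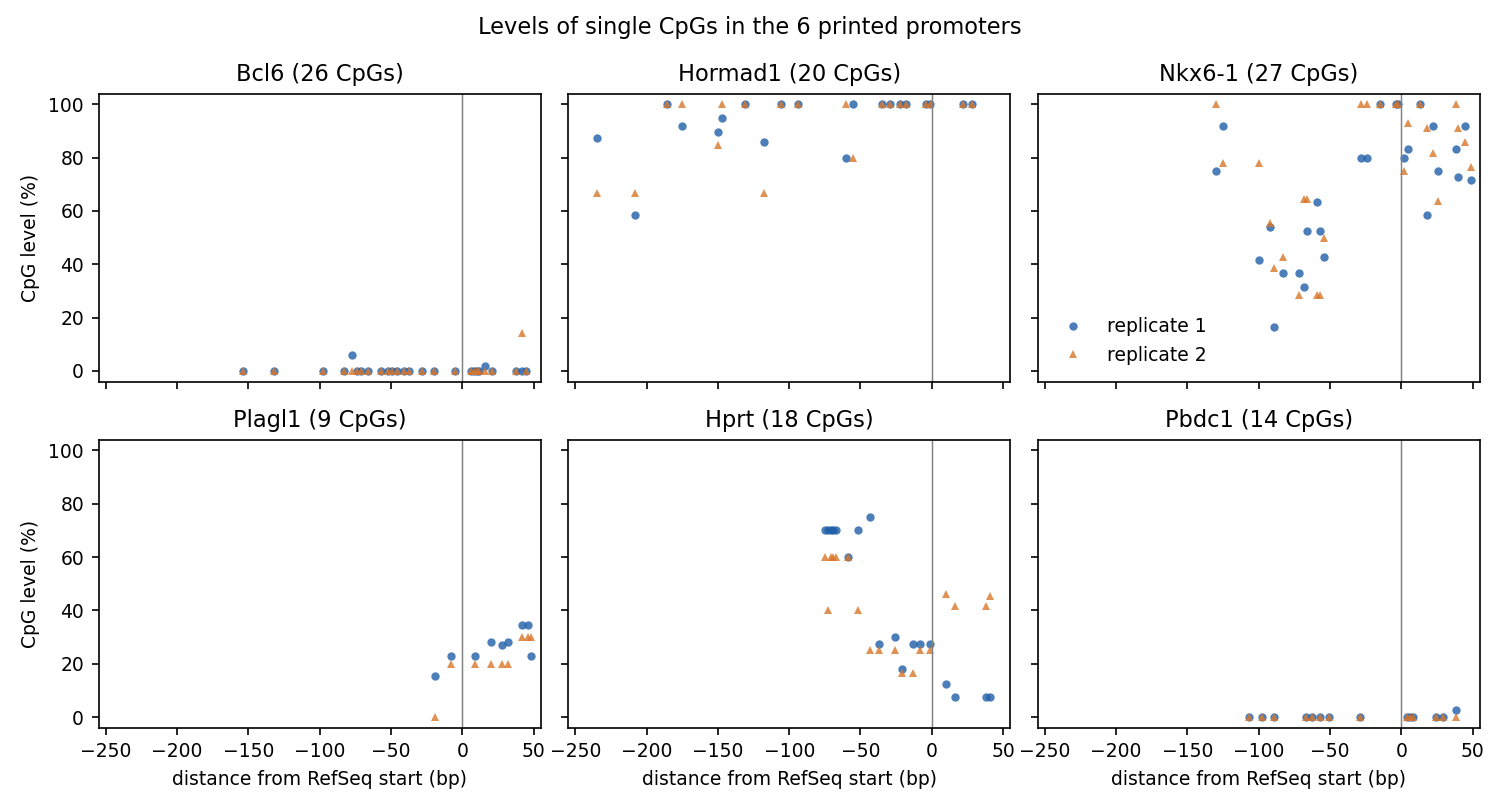
Level of each CpG with 5 or more reads in both libraries (y axis, %) against its distance from the RefSeq start (x axis, bp) in the 6 promoters printed above, with circles for replicate 1 and triangles for replicate 2. Bcl6 and Pbdc1 lie near 0, Hormad1 near 100% and Nkx6-1, Plagl1 and Hprt between them.

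The CpGs with enough reads were mostly unmethylated. Their mean level was 18.1% in replicate 1 and 18.3% in replicate 2 (18.2% ± 0.135, SD, n = 2), and 73.0% of them were unmethylated, 7.80% partly methylated, 10.7% methylated and 8.50% discordant. Across these CpGs, which are not independent, the 2 libraries had a Pearson's r of 0.9504. The read minimum chose among CpGs, since the mean was 40.02% ± 0.151 over the 1372450 CpGs read in both libraries and 6.55% ± 0.0848 over those with 10 or more reads in both. Unmethylated CpGs had a median of 21 and 12 reads and methylated ones 9 and 7.

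Over tiles, each counted once whatever its number of CpGs and with a read minimum per tile in place of one per CpG, the classes were closer in size. Their mean level was 54.4% ± 0.292 (SD, n = 2), with 21983 unmethylated (27.9%), 18585 partly methylated (23.6%), 26597 methylated (33.8%) and 11594 discordant tiles. Tiles of 10 to 12 reads in the shallower library had a mean of 72.4%, and tiles of 7 to 9 reads, which were not used, 73.0%.

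Level followed CpG density, counted as the CpG positions read in a tile by either library. Of the 13144 dense tiles, with 30 or more CpGs, 69.3% were unmethylated and 8.78% methylated, and their mean was 20.1% ± 0.209 (SD, n = 2). The 22301 tiles of medium density, with 10 to 29 CpGs, had a mean of 51.6% ± 0.321. The 43314 sparse tiles had a mean of 66.2% ± 0.302, with 13.7% unmethylated and 42.6% methylated. The 3 densities were in this order in each library, and the gaps between them were far above the spread between the libraries. Depth moved with density, with a median of 653 and 364 reads in dense tiles against 26 and 18 in sparse ones, and its part in the result was not tested.

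**Figure D2:**
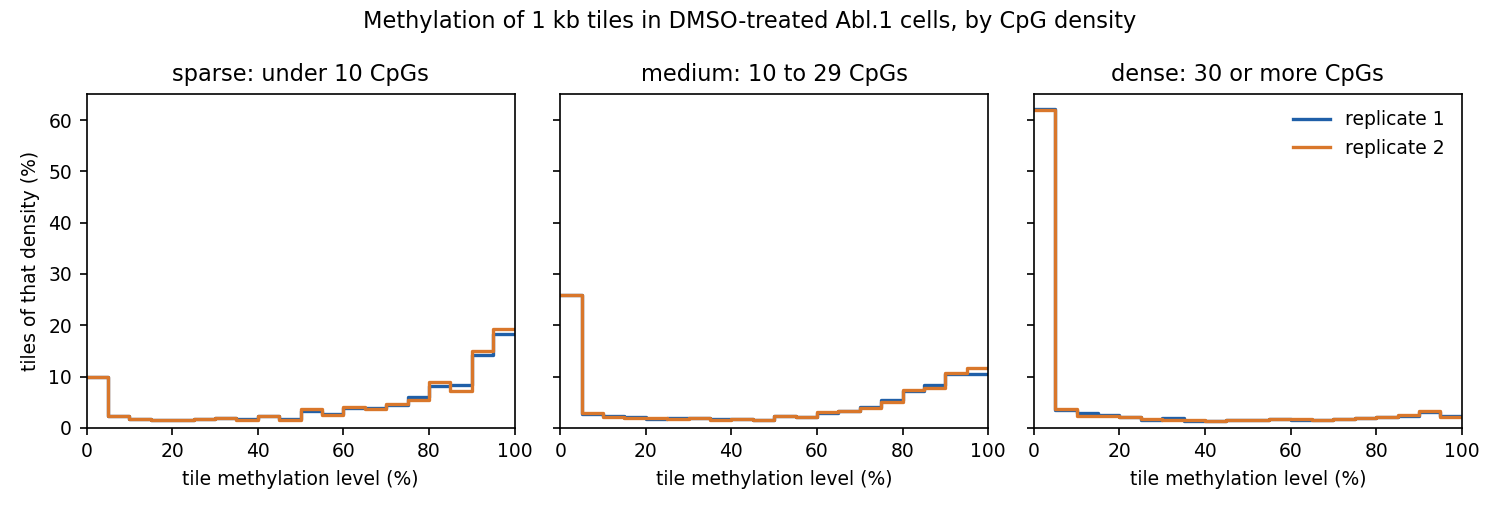
Share of 1 kb tiles (y axis, % of the tiles of that density) by methylation level (x axis, %, in steps of 5 points) for sparse, medium and dense tiles, with 1 line per library. Dense tiles pile up under 5%, with 62.1% and 61.9% of them there, while sparse tiles have their highest bars at 95% and above, with 18.3% and 19.3%.

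Position in a gene mattered as well. CpGs within 1 kb of a gene start were at 7.82% ± 0.0836 (SD, n = 2), those within 1 kb of the far end, where transcription stops, at 37.3% ± 0.216, those elsewhere in genes at 34.2% ± 0.206 and those outside genes at 50.2% ± 0.271. CpGs within 1 kb of either end of a gene without a known strand were at 12.9% ± 0.135. These were 13.3% of all CpGs used, and starts held 54.2%. Within dense tiles the gap was smaller, at 6.75% for starts, 16.3% elsewhere in genes and 18.01% outside genes. Within sparse tiles it was wide, at 24.4% for starts against 64.3% elsewhere in genes and 60.8% outside them. Sparse CpGs at a start were at a lower level than sparse CpGs elsewhere. Density counts the CpGs read, and 58.0% of the CGs in promoter entries were listed. A sparse tile may thus hold more CpGs than were counted.

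Strand, and so which end is the start, came from the RefSeq promoter table and was known for 17491 of 21883 protein-coding genes. Among the 4392 without it are the 510 genes of chromosome 18 in the table, whose starts were not analysed here. Of the 17491, 10526 had 10 or more reads in both libraries at the start. Of these starts 7526 (71.5%) were unmethylated, 1601 (15.2%) partly methylated, 799 (7.59%) methylated and 600 discordant. The mean start level was 18.5% in replicate 1 and 18.9% in replicate 2, and the median difference between the libraries was 0.600 points. The 95% Wilson interval of a start had a median width of 1.95 points in replicate 1 and 2.83 in replicate 2. Start windows of neighbouring genes overlapped for 1900 genes (18.1%), which then share CpGs. Starts of long noncoding RNAs were higher, at 35.4% ± 0.317 (SD, n = 2) over 2531 starts, of which 48.7% were unmethylated and 18.02% methylated.

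Gene starts were divided by the CpG content of their 300-base promoter entry. High CpG means an observed over expected CpG ratio of 0.75 or more and a GC content of 55% or more, low means a ratio under 0.48, and the rest are intermediate. Of 4705 measured starts of the high class, 83.6% were unmethylated and 4.04% methylated, with a mean of 10.9% ± 0.210 (SD, n = 2). The 3672 intermediate starts had a mean of 17.9% ± 0.296. The 1517 low starts had a mean of 41.5% ± 0.253, with 39.2% unmethylated, 29.3% partly methylated and 18.9% methylated. How many starts could be measured differed by class too, with 98.5% of the high, 88.3% of the intermediate and 22.3% of the low class. The enzyme site CCGG moved with this, since 87.5% of starts with 1 or more CCGG in the entry were measured and 22.9% of those with none. Of all promoter entries in the table, 52.8% hold a CCGG, which reads the same on both strands.

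Around starts of the high class the level was lowest just upstream, at 3.75% within 250 bp before the start. It was 4.44% in the first 250 bp of the gene, 9.51% at 750 to 1000 bp and 39.6% at 3000 to 3250 bp into the gene. On the upstream side it was 17.1% at 2000 to 1750 bp before the start. Among CpGs that passed the read minimum, the low class showed no such valley. Its level was 22.0% within 250 bp before the start and 18.8% within 250 bp after it. These values rest on 808 CpGs of 271 genes and on 3868 CpGs of 558 genes. They lie below the low class mean of 41.5% over 1517 start windows, which had a read minimum per window. The part of the read minimum per CpG in this gap was not tested. The flanks rest on few CpGs, such as 302 at 3000 to 3250 bp in the high class against 66943 in the first 250 bp, and they include CpGs near other genes.

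**Figure D3:**
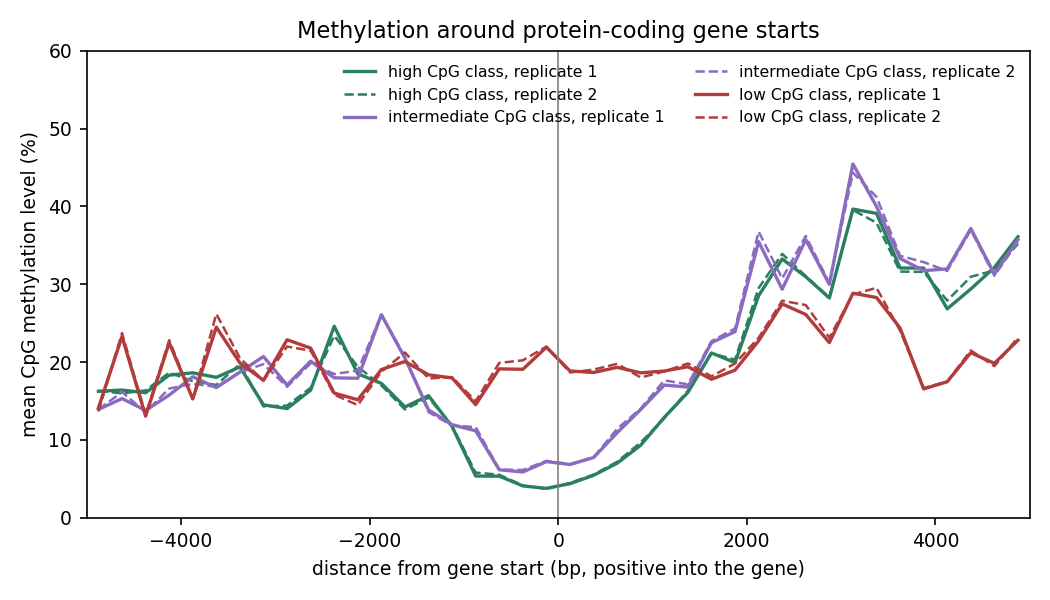
Mean level of CpGs with 5 or more reads in both libraries (y axis, %) in steps of 250 bp around protein-coding gene starts (x axis, bp, positive into the gene), by promoter CpG class, with solid lines for replicate 1 and dashed lines for replicate 2. The high and intermediate classes dip to under 10% around the start, and the low class runs near 20% through it.

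Gene bodies, the gene without the windows at its ends, were more methylated than starts. Of 9337 measured bodies 3251 (34.8%) were methylated, 3379 (36.2%) partly methylated and 1459 (15.6%) unmethylated, with a mean of 61.99% ± 0.815 (SD, n = 2). Far ends were measured in 2444 genes, with a mean of 60.4% ± 0.402, 45.2% methylated and 25.3% unmethylated. With 50 or more reads in both libraries, 23.4% of bodies were unmethylated and 23.1% methylated, and of far ends 54.5% and 19.6%. The means of bodies and far ends count each gene once. The 34.2% elsewhere in genes and the 37.3% at far ends given above count CpGs with enough reads. Of bodies of genes of 100 kb or more 21.5% were methylated and 56.7% partly methylated, and of those of genes under 20 kb 40.5% and 27.1%. The means of these length groups were 61.99% ± 1.201 and 61.4% ± 0.649 (SD, n = 2). They were 61.1% and 60.9% in replicate 1 and 62.8% and 61.8% in replicate 2. Genes of 20 to 100 kb were at 61.9% and 62.99% in replicates 1 and 2, the highest in both. The mean thus did not rise steadily with length. The SD covers the 2 libraries and not the spread among genes.

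Start and body were set side by side in genes with both measured. Over 4799 genes with an unmethylated start, the median body level was 80.5% and 46.6% of bodies were methylated. Over 1197 genes with a partly methylated start, 63.6% of bodies were partly methylated too. Over 509 genes with a methylated start, 47.2% of bodies were partly and 31.0% fully methylated. In the 2278 genes with 100 or more reads in both regions and both libraries, the body was higher than the start in 1883 and lower in 394, by 50 points or more in 694 and 18.

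The widest gaps with a low start were those of Ext2, Pofut2, Zfp319, Gpatch8 and Nr1h2. Ext2, which makes heparan sulfate chains, had a start at 0.188% and 0.303% and a body at 97.3% and 98.0%. Nr1h2, a nuclear receptor for oxysterols, had a start at 0% and 0.383% and a body at 96.4% and 98.1%. These are genes with an nearly unmethylated start and an almost fully methylated body.

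The widest gaps the other way were those of Fam189a1, Dgkz, Deaf1, Arhgef7 and Prickle1. Dgkz, a diacylglycerol kinase, had a start at 82.7% and 81.9% and a body at 5.69% and 3.87%. The outer 5′ end in the table need not be the start in use, and another listed start of Dgkz, inside its body, was at 0% in both libraries. Here and below, the other listed start given for a gene is the lowest of those measured more than 2 kb away. Deaf1, Arhgef7 and Prickle1 also had another listed start under 4% in both libraries, while Fam189a1 had none measured. Of all 799 methylated starts, 54 had another measured start of the same gene more than 2 kb away, and 25 of those 54 had one that was unmethylated. This was not particular to methylated starts. It held for 247 of 376 genes with an unmethylated start and 65 of 156 with a partly methylated one. Of the 376, 71 had another start that was methylated.

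Gene lists were used to describe which functions the classes hold, and each list is set beside all measured starts, of which 71.5% were unmethylated, 15.2% partly methylated and 7.59% methylated.

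Transcription factors of the B lineage had unmethylated starts with 1 exception. Of 15 measured of 20 listed, 14 were unmethylated and 1 was partly methylated, with a median pooled level of 0.754% against 1.04% for all starts. Ebf1, which commits cells to the B lineage, was at 0.204% and 0.397% (95% Wilson intervals 0.0559% to 0.740% and 0.109% to 1.44%). Tcf3 (E2A), Foxo1 and Lef1 were also under 1% in both. The exception was Prdm1, the regulator of plasma cells, at 35.4% and 33.3% from 65 and 45 reads, and another listed start of Prdm1 was at 2.41% and 3.29%. The bodies of this list were low as well, with a median of 20.4% over 17 bodies against 72.3% for all bodies. Of these 17 bodies 8 were unmethylated, 6 partly methylated and 1 methylated, while 15.6% of all measured bodies were unmethylated.

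The bodies of Ikzf1, Myb and Bcl11a, chosen after their values were seen, were at 4.32% and 3.43%, 1.42% and 1.92%, and 8.17% and 8.23%. Other bodies of the list were higher, such as Ebf1 at 43.9% and 59.7% and Tcf3 at 64.8% and 76.9%. Ikzf1 is the lymphoid regulator Ikaros, and Myb and Bcl11a are factors of blood progenitors. Among 7 measured surface and signalling genes of B cells, 5 were unmethylated, among them Vpreb1, part of the surrogate light chain, at 1.32% and 0% from 76 and 36 reads. Rag1, which cuts antigen receptor genes, was at 45.5% and 44.1% from 55 and 34 reads, with a low CpG promoter.

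Genes of other blood lineages were measured at 5 to 7 starts per list. Of 6 measured T lineage starts 3 were unmethylated, 2 partly methylated and 1 methylated, with a median of 28.1%. Bcl11b, needed for T cell commitment, was the methylated one, at 83.7% and 84.9%, and its body was at 85.7% and 84.8%. Tcf7, another T cell factor, had an unmethylated start at 4.21% and 4.13% with a body at 86.3% and 87.2%. Of 5 myeloid starts 3 were unmethylated and 2 partly methylated, with Cebpa, a granulocyte factor, at 10.6% and 13.6%. Of 7 erythroid and megakaryocyte starts 4 were unmethylated and 3 partly methylated, with Zfpm1, the cofactor FOG1, at 0.666% pooled and Tal1 at 31.7% and 40.9%.

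Housekeeping and antigen presentation genes were unmethylated at every measured start. All 25 measured housekeeping starts were unmethylated, with a highest pooled level of 3.20% in the splicing factor Srsf1. All 9 measured starts of antigen presentation genes were unmethylated, from 0.197% pooled to 4.07%. H2-K1, a class I heavy chain, was at 0.274% and 0.156%, and B2m, the shared light chain, at 0.327% and 1.79%.

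Germline and meiosis genes were mostly methylated. Of 17 measured starts 15 were methylated, 1 partly methylated and 1 discordant, and none was unmethylated, with a median pooled level of 92.4%. Dazl, an RNA-binding protein of germ cells, was at 95.9% and 97.3%, and Ddx4, a germ cell helicase, at 97.2% and 98.1%. Sycp1, part of the synaptonemal complex, was at 96.6% and 92.6%. The partly methylated one was Tex101, a sperm surface protein, at 74.6% and 77.1%. Of the measured ones 5 were in the high CpG class, where 4.04% of all starts were methylated.

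Pluripotency genes varied. Of 11 measured, 3 were methylated, 4 partly methylated, 3 unmethylated and 1 discordant. Sox2 was at 93.0% and 93.3%, Lin28b at 94.1% and 87.7%, and Pou5f1 (Oct4) at 64.2% and 71.4%. Another listed start of Pou5f1 was at 20.97% and 16.7%. Klf4 was at 13.6% and 13.3% and Tfcp2l1 at 5.34% and 3.47%. Of 10 measured genes specific to other tissues, 7 were partly methylated, 2 methylated and 1 discordant, with a median of 66.6%. Myog, a muscle regulator, was at 96.4% and 83.3%, and the epithelial keratin Krt5 at 80.6% and 90%, both from 36 reads or fewer.

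Developmental regulators carried intermediate methylation. Of 37 measured starts 31 were partly methylated, 3 methylated, 2 unmethylated and 1 discordant, with a median of 53.4%, and 18 of them were in the high CpG class. The methylated ones were Hand2 (94.8% and 91.1%), Foxd3 (90.6% and 88.9%) and Foxl2 (81.0% and 85.8%), and the unmethylated ones Lhx2 (6.58% and 5.87%) and Wnt1 (19.14% and 17.2%). Their bodies were alike, with 27 of 34 measured bodies partly methylated against 36.2% of all bodies. Of 19 measured Hox starts 12 were partly methylated, 4 unmethylated, 1 methylated and 2 discordant. Hoxa5 was at 96.4% and 97.3% and Hoxb4 at 0.287% and 0%, so single members of this family lay at either end of the scale.

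**Figure D4:**
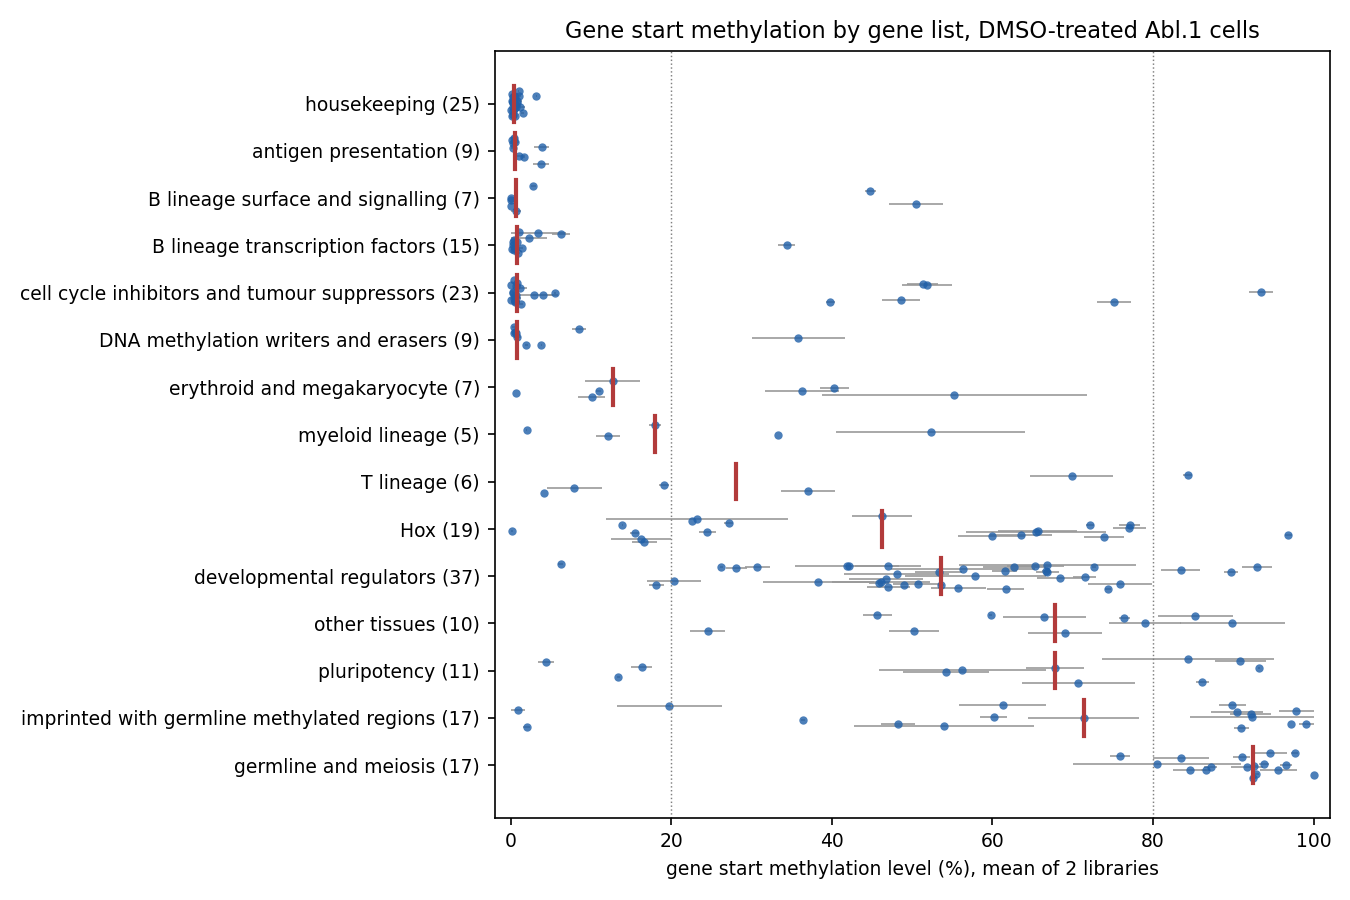
Start level of each measured gene (x axis, %, circles at the mean of the 2 libraries, with a grey line joining them) by gene list (y axis, number measured in brackets), with red bars at list medians and dotted lines at 20% and 80%. Housekeeping, antigen presentation and B lineage genes crowd near 0, developmental and Hox genes spread between the dotted lines, and germline genes lie above 70%.

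Imprinted genes with methylated regions inherited from a germ cell had 8 methylated, 6 partly methylated, 2 unmethylated and 1 discordant start of 17 measured, with a median of 72.8%. Nap1l5 was at 98.1% and 100% (95% Wilson intervals 93.4% to 99.5% and 94.3% to 100%), Nnat at 95.7% and 100%, Mcts2 at 97.2% and 97.1% and Grb10 at 91.9% and 90.1%. Plagl1 was at 36.7% and 36.2% and Gnas at 46.1% and 50.3%, and another listed start of Gnas was at 1.15% and 0.210%. Inpp5f and H13 were at 2.39% and 1.59%, and 1.80% and 0%. In genes of this list, Gnas, Grb10, Inpp5f and H13 among them, the window at the outer 5′ end need not be the imprinted region. The counts thus describe gene starts and not the imprinted regions. Airn, counted as methylated, rests on 10 and 13 reads.

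Of the enzymes and readers of DNA methylation 8 of 9 measured starts were unmethylated, among them Dnmt3b at 3.75% and 3.85%, Uhrf1 and Tet2. Tet1, which oxidises methylcytosine, was partly methylated at 41.6% and 30.04%, with 95% Wilson intervals of 36.6% to 46.8% and 24.7% to 36.0% that do not overlap. Of 23 measured cell cycle inhibitors and tumour suppressors 17 were unmethylated, 5 partly methylated and 1 methylated. Trp53 was at 0% in both libraries from 379 and 217 reads, which allows up to 0.792% and 1.38% by the limit of 3 reads for a count of 0, and 1.003% and 1.74% by the Wilson interval. Dapk1, a death-associated kinase, was at 94.98% and 91.9%. Rassf1 was at 55% and 48.7%, and another listed start of it was at 0.426% and 0%.

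The methylated starts with the most measured CpGs were those of She, Fam189a1, Mpped1, Slc22a23, Hs6st3, Foxl2, Grik3, Zcchc14, Jph3 and Fam135a. They held 37 to 58 CpGs with 5 or more reads, and 9 of these 10 promoters were of the high CpG class, the exception being Foxl2. Ranking by measured CpGs favours that class. Of all 799 methylated starts 190 were of the high, 249 of the intermediate and 287 of the low class, and the others had no promoter entry in the window. She, an adaptor protein on chromosome 3, was at 84.8% and 84.9%, and Hs6st3, a heparan sulfate sulfotransferase on chromosome 14, at 93.9% and 93.5%. Grik3 and Jph3, a glutamate receptor and a junction protein of neurons, were at 82.2% and 85.1%, and 83.7% and 86.8%.

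The partly methylated autosomal starts with the most CpGs were those of Map7, Bnc1, Atp11a, Ap5b1, Agap1, Dbn1, Sdk1, Lrig1, Sdk2 and Dock3, with 81 to 101 CpGs each. Map7, a microtubule protein, was at 33.2% and 32.8%, and Sdk1, an adhesion protein of synapses, at 57.3% and 60.5%. The CpGs within 250 bp of the start were lower than those from 500 bp on by over 20 points in Agap1 (19.3% against 74.1%), Ap5b1 (19.4% against 51.4%), Lrig1 (13.1% against 45.2%) and Map7 (24.0% against 49.4%). Another listed start of Ap5b1 was at 0.375% and 0.385%. In Sdk1 both were near 55%, at 55.3% and 55.6%, and in Sdk2 the order was the other way, at 52.9% and 34.4%. Of the 391 partly methylated autosomal starts with both values, 126 (32.2%) were lower near the start by 20 points or more.

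The line is female, and in female cells 1 X of each cell is inactive and methylated at many CpG island starts. The 349 measured X-linked starts had a mean of 39.0% in replicate 1 and 40.2% in replicate 2 (39.6% ± 0.856, SD, n = 2), against 17.8% and 18.1% (17.97% ± 0.238) over 10177 autosomal starts. The difference of 21.7 points was larger than the spread between the libraries. No test between groups of samples applies to 1 group, so it has no p. The medians were further apart, at 24.1% and 26.8% for the X and 0.977% and 0.970% for the autosomes.

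The shape differed as well as the mean. Among starts of the high CpG class, 67.0% and 65.9% of 88 X-linked ones lay between 10% and 40% in the 2 libraries, against 6.43% and 6.13% of 4617 autosomal ones. Under 5% lay 3.41% and 4.55% of the X-linked and 79.3% and 78.8% of the autosomal starts. The 18 autosomes with such starts had means from 5.78% (chromosome 16) to 14.6% (chromosome 15), and the X 29.8% ± 0.224 (SD, n = 2). Many X-linked values lay near the class limit of 20%, and 31.5% of X-linked starts were discordant against 4.81% of autosomal ones, and what the limit adds to this was not tested.

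**Figure D5:**
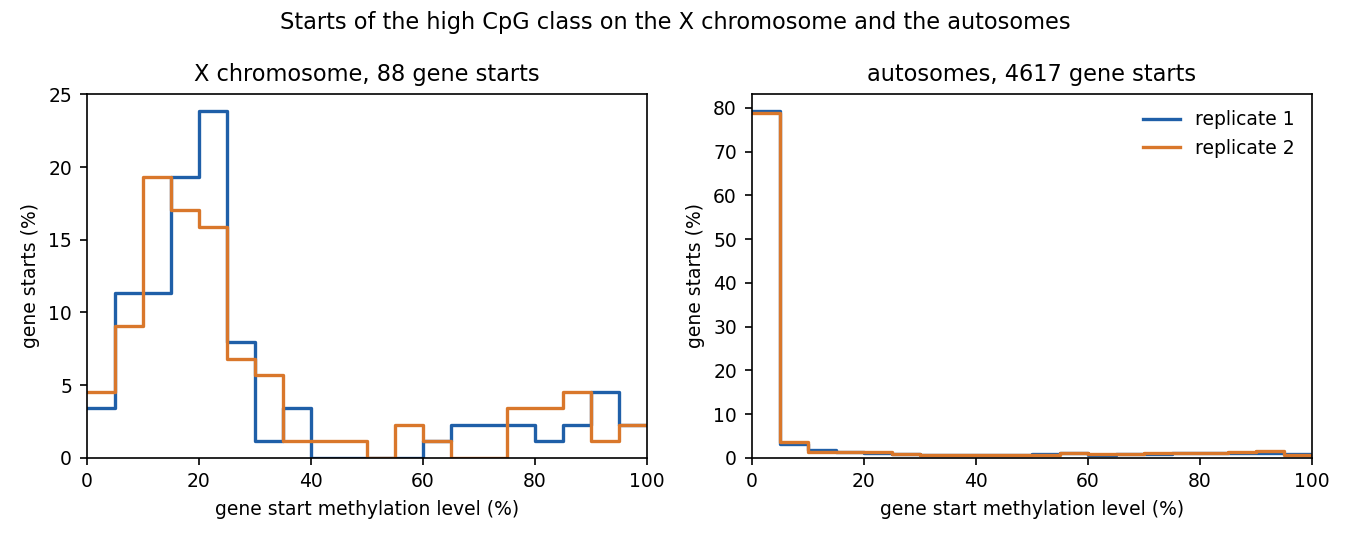
Share of high CpG class starts (y axis, %, a separate scale in each panel) by start level (x axis, %, in steps of 5 points) on the X chromosome and the autosomes, with 1 line per library. The X-linked starts pile up between 10% and 30%, and over 78% of the autosomal starts lie under 5%.

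The partly methylated X-linked starts with the most CpGs were those of Bcorl1, Tab3, Ube2a, Pdzd4, Map7d2, Tsc22d3, Ppp1r3f, Txlng, Aifm1 and Rab33a, with 37 to 54 CpGs each. The last 2 share a window, so they are 1 measurement. Bcorl1, a corepressor, was at 22.8% and 22.5%, Ube2a, a ubiquitin-conjugating enzyme, at 21.8% and 22.9%, and Tab3, a kinase adaptor, at 21.9% and 29%. Another listed start of Tsc22d3 was at 10.1% and 13.2%. Apart from Map7d2, at 60.2% and 55.2%, all windows were between 20% and 34% in both libraries.

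The CpGs within a partly methylated X-linked start were more alike than those within an autosomal one. Over windows with 10 or more CpGs, the median SD of CpG levels within a window was 12.3 points in 46 X-linked and 24.4 points in 798 autosomal starts. In the X-linked windows 6.26% of CpGs were at 80% or more, and in the autosomal ones 17.6%. The level itself moved with this: among starts between 10% and 40% in both libraries the median SD was 9.57 points in 103 X-linked and 17.8 points in 534 autosomal windows. Chromosomes are not replicates, and no test was made.

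Of 21 measured X-linked genes usually silenced on 1 X, 9 were unmethylated, 3 partly methylated, 1 methylated and 8 discordant, with a median of 17.3%. Over all 349 measured X-linked starts 21.8% were unmethylated, 31.2% partly methylated, 15.5% methylated and 31.5% discordant. Hprt was at 35.0% and 35.7% over its window (95% Wilson intervals 30.6% to 39.8% and 30.2% to 41.6%), and Lamp2, a lysosomal membrane protein, at 18.3% and 27.7%. Ogt, which adds sugar to nuclear proteins, was at 1.02% and 0.909%, low in both libraries. Msn, chosen after its values were seen, was at 3.54% and 25.3%, so the 2 libraries were far apart there.

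All 5 measured genes known to escape X inactivation were unmethylated, with a median of 0.266%. Among all 349 measured X-linked starts 21.8% were unmethylated, and so were 9 of the 21 genes usually silenced on 1 X. Pbdc1 was at 0.212% and 0%, Eif2s3x, a translation initiation factor, at 0.412% and 0%, and 5530601H04Rik at 0% and 0.508%. Kdm5c, a histone demethylase, was at 3.30% and 6.33%, and Ddx3x, a helicase, at 19.3% and 16.4%. In the high class, Eif2s3x and Cldn34c1 were the only X-linked starts under 5% in both libraries.

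The 2 libraries were compared tile by tile with Fisher's exact test on their reads, which compares these libraries only. Of 78759 tiles 417 (0.529%) had a Benjamini-Hochberg adjusted p under 0.05, 293 with replicate 2 higher and 124 with replicate 1 higher, and 4514 had an unadjusted p under 0.05. On the X 62 of 2559 tiles passed (2.42%) and on the autosomes 355 of 76194 (0.466%). By density 1.94% of dense, 0.641% of medium and 0.0439% of sparse tiles passed. The part of density and depth in the share on the X was not tested. The median gap of the 417 tiles was 16.4 points. Of the tiles that passed, 105 were unmethylated, 99 partly methylated, 1 methylated and 212 discordant, classes that themselves depend on how far the libraries differ. Reads of 1 tile are not independent molecules, so these p-values are too small.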

How the data were processed

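Methylation was measured by RRBS, and the 2 DMSO libraries of Abl.1 cells were used. The authors deposited 1 table per library without a header, each line holding a CpG position, the methylated over all reads as a text entry of counts, and a score from 0 to 1000. The deposited score restated that share of reads in each line and was not used further. The submitters' processing notes name the build mm10, with aligner and caller not given in the sources used here. PCR copies cannot be told apart.

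Lines of unusual width (2 and 1) and at repeated positions (56 and 18) were left out. Levels are methylated over all reads, summed over a tile or window. Gene positions came from the RefSeq table and promoter table of GRCm38.p6. Far ends and bodies were classed like starts. Tiles were tested between the libraries with Fisher's exact test (scipy 1.17.1) and Benjamini-Hochberg adjustment, a script tested on simulated data. Lists name up to 4 members from each end of their measured levels with 20 or more reads in both libraries. Across the genome the rule took the 10 methylated, 10 partly methylated autosomal and 10 partly methylated X-linked starts with the most CpGs, and the 5 widest gaps between start and body in each direction. The members and lists were chosen with earlier results of these data known. Alternatives covered class limits, read minimums, window width, weighting and each library alone. The drug-treated libraries were not used.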

Additional observations from a re-analysis of the deposited data

Results flagged for a closer look

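Reads were listed at Y-linked CpGs although the line is labelled female. No measured gene start was Y-linked, while 6 Y-linked tiles are among the 78759 tiles used. Where these reads come from was not tested. Replicate 1 had 724 reads at 178 Y-linked CpGs and replicate 2 had 476 reads at 131, against the 3 reads that a count of 0 allows. They were 0.00439% and 0.00505% of all reads, and 85.9% and 85.1% of them were methylated. They fell in 46 and 36 blocks of the chromosome, with at most 70 and 41 reads at 1 CpG.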

How the results depend on the processing

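Unmethylated gene starts numbered between 7016 and 7861 under every alternative run, against 7526 as reported. Leaving out the 0.1% of CpGs with the most reads was run for tiles and gene starts and moved none of their classes by 1.5 times. Of 156 genes named from lists or levels, none switched between unmethylated and methylated, except Dgkz with the nearest start of the promoter table. Changes to or from the partly methylated or discordant class were more common. The class was kept by 120 of 156 genes with limits of 10% and 90%, 129 of 149 with unweighted means and 130 of 147 with windows of 500 bp. Among the other settings the lowest share was 146 of 152, with the nearest start.

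With 1 library alone only that library has to reach the read minimum. The partly methylated CpGs then numbered 81676 to 133118 (47210 as reported) and the methylated ones 100660 to 185872 (64689 as reported), with the higher value without replicate 2. Without replicate 1 and without replicate 2, tiles gave 26221 and 39781 partly methylated and 35937 and 51472 methylated. Far ends gave 610 and 793 partly methylated and 1334 and 1675 methylated. Mean levels were 40.5% and 40.8% at X-linked starts and 18.6% and 19.6% at autosomal starts, and the difference was 21.9 and 21.2 points.

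Limits of 10% and 90% gave 87347 partly methylated and 36748 methylated CpGs, 31853 and 14462 tiles, 2581 and 355 starts, 786 and 690 far ends, and 5377 and 1632 bodies. A minimum of 3 reads per CpG gave 78937 partly methylated and 135936 methylated CpGs. With 10 reads there were 271205 unmethylated, 14837 partly methylated and 7578 methylated CpGs, and with 20 reads 64181, 1063 and 573, so deeper CpGs were more often unmethylated. Regions with 20 reads gave 10493 partly methylated and 12341 methylated tiles and 624 methylated far ends, with means of 37.4% on X and 16.1% on autosomes. With 50 reads there were 4660 and 2787 such tiles, 413 methylated starts, 174 partly methylated and 174 methylated far ends and 1309 methylated bodies. The order of the classes changed with it. Of 24757 tiles 64.0% were unmethylated and 11.3% methylated, against 27.9% and 33.8% as reported. Of 890 far ends 54.5% were unmethylated and 19.6% methylated, against 25.3% and 45.2% as reported. Tiles with 20 reads were already 41.1% unmethylated and 26.1% methylated. With 50 reads the X-linked mean was 32.0002%, the autosomal mean 13.03% and the difference 18.97 points.

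Unweighted means over CpGs gave 11685 partly methylated and 17356 methylated tiles and 727 methylated far ends, with 36.9% on X and 15.1% on autosomes. Windows of 500 bp gave 350 unmethylated, 223 partly methylated and 526 methylated far ends, with 37.99% on X and 16.08% on autosomes. A pair of alternatives was chosen after seeing the data. The nearest start of the promoter table gave 38.1% on X and a difference of 20.1 points. Asking for 5 CpGs with 5 reads each left 330 methylated starts, 29.9% on X, 11.65% on autosomes and a difference of 18.2 points. The X-linked mean was above the autosomal mean under every setting run.

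Of the 417 tiles that differed between the libraries by Fisher's exact test, 163 differed by 20 points or more. No paired analysis was possible because only 1 group of 2 libraries was used, so no groups share replicate numbers. Depth limits single CpGs and sparse tiles most, and 2 libraries give no more than 1 degree of freedom for their spread.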

Other observations

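Gene families picked by their symbols, after values were seen, lay at different levels. Of 40 measured starts of complex I subunits of the respiratory chain 39 were unmethylated, of 41 translation initiation factors 39, of 39 proteasome genes 37 and of 66 ribosomal protein genes 61. Among all protein-coding starts 71.5% were unmethylated. Zinc finger Zfp genes were near that share, at 78.2% of 243 measured starts.

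Families used in particular tissues were higher. Of 22 measured collagen starts 17 were partly methylated and 1 was unmethylated, with a median of 43.1%. Of 50 potassium channel starts 30 were partly methylated and 11 unmethylated. Of 21 keratin starts 1 was unmethylated, with a median of 77.7%. Olfactory receptors were measured at 16 of 944 starts, of which 10 were partly methylated, 4 methylated and 2 discordant. Solute carriers lay between these groups, with 113 of 201 measured starts unmethylated. These families share sequence among their members and were chosen for their levels, so they are descriptions.

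Around far ends of protein-coding genes the CpG mean was 31.1% in the last 500 bp of the gene and 14.4% in the 500 bp after it, where 491 genes had CpGs and starts of neighbouring genes are included. A set of 245 CpGs had over 1000 reads in a library. They lay in 14 tiles and took 3.29% and 3.45% of all reads, at 22.0% and 24.4%.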
